A study of Mus musculus with 6 samples.

Results

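Heat shock and unfolded protein response genes code for the chaperones that fold new and damaged proteins in the cytosol, the mitochondria and the endoplasmic reticulum, and for the sensors that adjust chaperone supply to demand. A list of 44 such genes was taken by symbol from the 23792 gene rows of the deposited table, and each symbol had 1 row. By compartment, 19 genes were cytosolic, 3 mitochondrial and 22 of the reticulum. The list is defined by function.

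The RNA came from the heart ventricles of male C57BL/6-FVB mice aged 6 to 8 weeks. All mice carried a tetracycline transactivator under the αMHC promoter, which is active in cardiomyocytes, and a responder transgene for HIF-PPN, a HIF1α with proline and asparagine substitutions that make it stable in normal oxygen. HIF-PPN mice (n = 3) had been taken off doxycycline for 3 days, so that the transgene was on, and control mice (n = 3) stayed on doxycycline, which holds it off. The transgene and the removal of doxycycline therefore cannot be told apart, and neither group lacked the transgenes.

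Values are FPKM, fragments per kilobase of transcript adjusted for library size, so they can be compared between genes of different length. The 3 mice of a group had been merged into 1 FPKM value per gene before deposit. No difference described here therefore has a replicate check, no test was run, and the depth behind a value is unknown. Each difference is the log2 ratio of HIF-PPN FPKM to control FPKM, so that a positive value means more transcript in HIF-PPN hearts. In whole ventricles, fewer cells of a type and less RNA per cell cannot be told apart.

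In the cytosol, HSP70 proteins hold unfolded chains with the help of J proteins and nucleotide exchange factors, HSP90 proteins finish the folding of kinases and receptors, and small heat shock proteins bind unfolding proteins without ATP. The transcription factor HSF1 raises many of these genes under heat or protein damage. Cardiomyocytes keep several small heat shock proteins at high levels throughout life, and these protect the sarcomere and the intermediate filaments. In the reticulum, the HSP70 protein BiP binds unfolded chains, and when it is drawn away from the sensors IRE1, ATF6 and PERK the unfolded protein response begins. Cleaved ATF6 and spliced XBP1 then raise reticulum chaperones through the ER stress response element, in which a CCAAT box is set apart from the letters CCACG.

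The elements themselves are shown first, because they are the promoter letters that Hspa5, Calr, Hsp90b1 and Canx, the 4 most abundant reticulum genes of the list, share. The 250 bases upstream of the transcription start were taken from RefSeq promoters of GRCm38.p6, where 33 of the 44 genes matched by symbol (13 cytosolic, 2 mitochondrial and 18 reticulum). The letters CCAAT and CCACG with 9 free bases between them were searched on both strands and occurred in 37 of 32851 promoters (0.113%). They occurred in 7 of the 18 reticulum genes, in 0 of the 13 cytosolic genes and in 0 of the 2 mitochondrial genes. Each element is printed 5′ to 3′ on the strand that reads CCAAT, with the fixed letters in capitals.
Hspa5: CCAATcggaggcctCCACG
Calr: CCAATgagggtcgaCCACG
Hsp90b1, upstream element: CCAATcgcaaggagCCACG
Hsp90b1, downstream element: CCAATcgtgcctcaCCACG
Canx: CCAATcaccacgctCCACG
Pdia6: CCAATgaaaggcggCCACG
Dnajc3: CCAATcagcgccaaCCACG
Creld2: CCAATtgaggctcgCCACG
The elements start at −65 from the start site in Hspa5, −162 in Calr, −212 and −107 in Hsp90b1, −145 in Canx, −98 in Pdia6, −105 in Dnajc3 and −126 in Creld2. Those of Calr and Creld2 and the downstream one of Hsp90b1 lie on the strand opposite to the gene. A related element, ATTGG and CCACG with 1 free base between them, occurred in 10 promoters (0.0304%), among them that of Herpud1 and of no other matched gene of the group. A match of letters is a description of the promoter and not a measured binding site.

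The whole windows are given for Hspa5 and Pdia6, the reticulum genes furthest below control in HIF-PPN hearts, with the ER stress response element in capitals. The Hspa5 window is chr2:34771840-34772089 and the Pdia6 window is chr12:17266339-17266588 of GRCm38.p6, both on the plus strand.
Hspa5: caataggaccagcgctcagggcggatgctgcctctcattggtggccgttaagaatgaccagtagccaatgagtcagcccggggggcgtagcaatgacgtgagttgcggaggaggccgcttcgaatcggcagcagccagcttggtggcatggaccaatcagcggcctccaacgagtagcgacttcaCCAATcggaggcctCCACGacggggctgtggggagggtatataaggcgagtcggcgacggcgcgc
Pdia6: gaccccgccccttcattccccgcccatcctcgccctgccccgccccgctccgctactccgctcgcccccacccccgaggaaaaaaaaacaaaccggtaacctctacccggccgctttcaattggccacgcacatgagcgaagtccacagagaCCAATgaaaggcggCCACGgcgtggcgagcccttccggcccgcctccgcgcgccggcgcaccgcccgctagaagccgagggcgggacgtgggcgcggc
In Hspa5 the element is the one nearest to the start site of the 8 that were found.

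The heat shock element, 3 units of GAA in alternating direction to which HSF1 binds, was searched on both strands as GAA, TTC and GAA with 2 free bases between units. It occurred in 153 of 32851 promoters (0.466%) and in 0 of the 13 cytosolic and 0 of the 18 reticulum genes, but in both matched mitochondrial genes, Hspd1 and Hspe1. These are the HSP60 chaperonin and its HSP10 lid, whose loci lie 215 bases apart on chromosome 1 and face away from each other, so that they share the element. The Hspe1 window, chr1:55087898-55088147 on the plus strand of GRCm38.p6, is shown because it holds the only exact element among the matched genes. The letters of its overlapping matches are in capitals.
Hspe1: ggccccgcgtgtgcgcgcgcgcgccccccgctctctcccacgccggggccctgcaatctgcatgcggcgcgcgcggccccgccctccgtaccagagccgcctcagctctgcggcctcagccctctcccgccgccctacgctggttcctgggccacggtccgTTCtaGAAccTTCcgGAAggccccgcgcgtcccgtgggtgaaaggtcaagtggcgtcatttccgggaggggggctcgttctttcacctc
The matches start at −89 on the opposite strand and at −84 on the strand of Hspe1.

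Of the 44 genes, 42 reached 1 FPKM in at least 1 group and were used for counts and medians. The other two, Hspa1a (chr17:34969359-34972156) and Hspa1b (chr17:34956429-34959238), are the heat-inducible HSP70 genes. Hspa1a had 0.711 FPKM in HIF-PPN hearts, against 0.542 FPKM in control hearts. Hspa1b had 0.760 FPKM in HIF-PPN hearts, against 0.617 FPKM in control hearts. Both genes stayed under 1 FPKM in either group, so their listed values were close to the bottom of the scale. Of their 50-base words, 61.0% for Hspa1a and 62.3% for Hspa1b also occur elsewhere in the genome, so these levels are uncertain. The positions are those of the deposited table in GRCm38, counted from 1.

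No gene of the 42 differed 2-fold or more between HIF-PPN and control hearts, where 3.2% of the 12098 genes that passed the same filter did (2.11% higher and 1.09% lower). At 1.5-fold, Hspb7, Hsph1 and Hsp90aa1 were higher in HIF-PPN hearts and 0 were lower, 3 of 42, beside 9.42% of all genes (5.42% higher and 4% lower). At a log2 difference of 0.32, Hspa8 and Cryab were also higher and Hspa5, Pdia6 and Dnajb9 were lower, 5 and 3 of 42, beside 26% of all genes (14.4% higher and 11.6% lower). In either direction, 21 genes were above and 21 below control, beside 52.1% of all genes above and 47.9% below. The median log2 difference was −0.003 for the 42 genes and 0.01 for all genes. Apart from Hspb7, Hsph1 and Hsp90aa1, the 42 genes lay between the 5th and 95th percentiles of all genes (−0.52 and 0.61).

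Of the 17 cytosolic genes that passed, 12 were higher in HIF-PPN hearts and 5 lower, with a median log2 difference of 0.08. All 3 mitochondrial genes were lower, with a median of −0.12. Of the 22 reticulum genes, 13 were lower and 9 higher, with a median of −0.07. Summed over genes, the cytosolic group came to 5317 FPKM in HIF-PPN hearts, against 4186 FPKM in control hearts. The reticulum group summed to 1187 FPKM in HIF-PPN hearts, against 1313 FPKM in control hearts. The mitochondrial group summed to 409 FPKM in HIF-PPN hearts, against 461 FPKM in control hearts. The sums run over all listed genes and weight the abundant ones, and the cytosolic group lay further from the other compartments in them (log2 ratios of 0.34 for cytosolic, −0.15 for reticulum and −0.17 for mitochondrial genes) than in the medians. The whole group took 1.52% of all FPKM in HIF-PPN hearts, against 1.26% in control hearts. Without the small heat shock proteins, the other 37 genes summed to 2323 FPKM in HIF-PPN hearts, against 2396 FPKM in control hearts (log2 ratio −0.04).

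**Figure D1:**
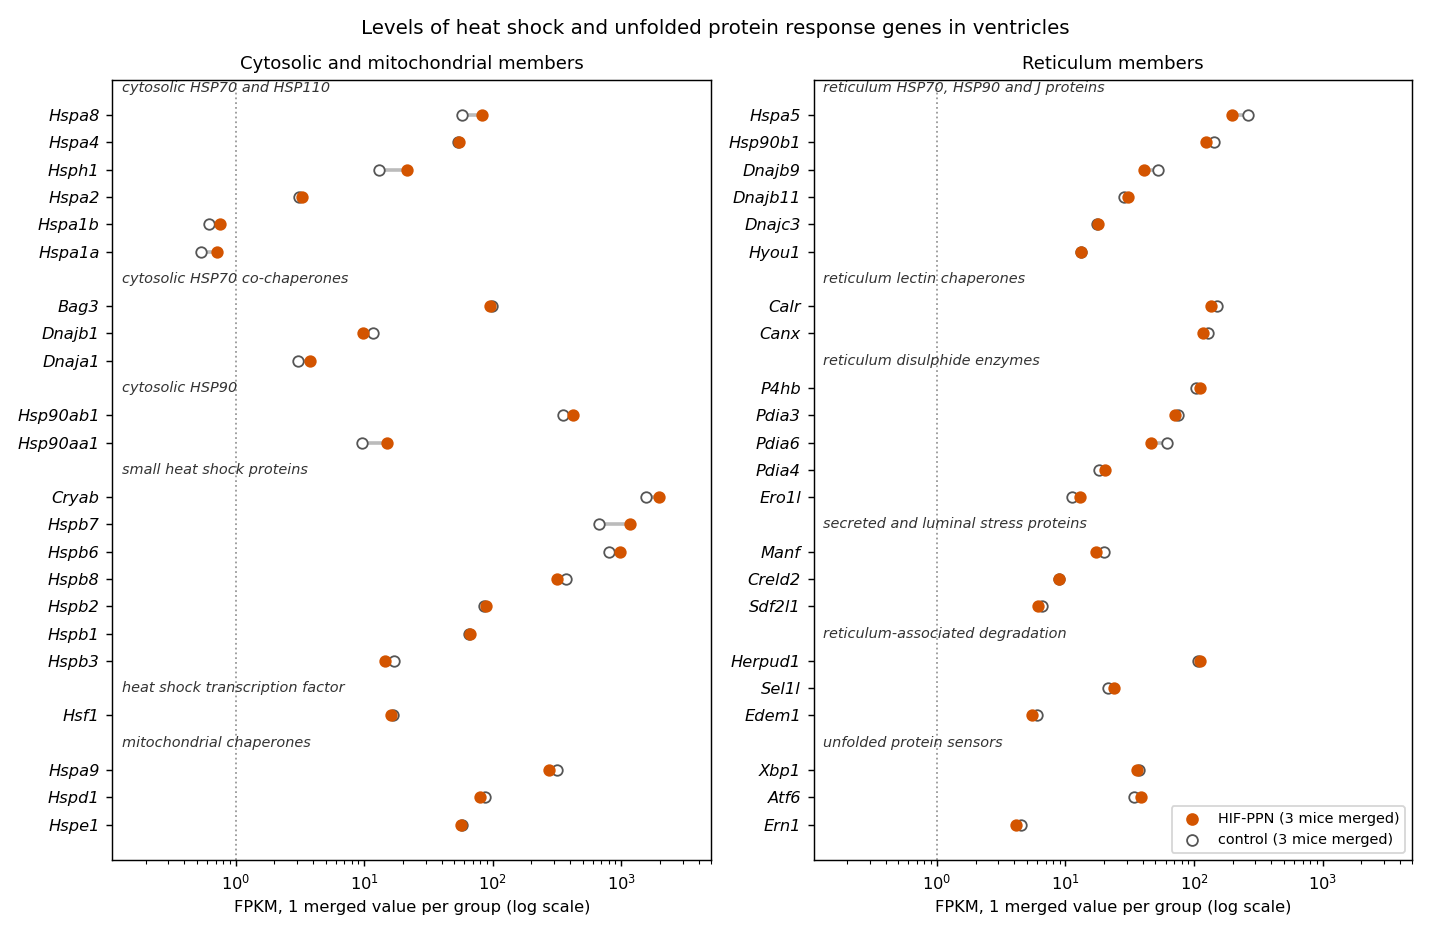
FPKM of each of the 44 genes in HIF-PPN and control hearts on a log axis, grouped by compartment, with 1 merged value per group and no error bars. Cryab, Hspb7 and Hspb6 are the most abundant, and Hspa1a and Hspa1b lie under the 1 FPKM filter in both groups.

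The small heat shock proteins made up most of the FPKM of the whole group. They summed to 4589 FPKM in HIF-PPN hearts, against 3566 FPKM in control hearts, or 1.01% of all FPKM in HIF-PPN hearts and 0.751% in control hearts. Hspb7, the cardiovascular small heat shock protein that binds filamin in the sarcomere (chr4:141420779-141425310), had 1177 FPKM in HIF-PPN hearts, against 666 FPKM in control hearts. Its log2 difference of 0.82 (1.77-fold) was the highest of the 44 genes and lay above that of 97.1% of all genes. Among the 120 genes with a mean of 500 FPKM or more, of which 29 were higher in HIF-PPN hearts, 3 exceeded it. That cutoff was chosen after the values were seen.

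Cryab, αB-crystallin, which binds desmin and titin, was the most abundant of the group, at rank 26 of 12098 by mean FPKM. It had 1947 FPKM in HIF-PPN hearts, against 1554 FPKM in control hearts, a log2 difference of 0.33. Hspb6, HSP20, a target of protein kinase A in muscle, had 977 FPKM in HIF-PPN hearts, against 804 FPKM in control hearts (log2 difference 0.28). Hspb8, HSP22, which works with Bag3 to clear misfolded proteins, stood on the other side. It had 317 FPKM in HIF-PPN hearts, against 374 FPKM in control hearts (log2 difference −0.24). Within the small heat shock proteins Hspb7 accounted for 25.6% of the FPKM in HIF-PPN hearts, against 18.7% in control hearts, while the share of Hspb8 was 6.92% in HIF-PPN hearts, against 10.5% in control hearts. Without Hspb7 the other 6 summed to 3412 FPKM in HIF-PPN hearts, against 2900 FPKM in control hearts (log2 ratio 0.23), so that the sum stayed higher.

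Of the remaining small heat shock genes, Hspb1 and Hspb2 were close to control and Hspb3 was lower by about as much as Hspb8. Hspb1, HSP25 in the mouse, had 66.8 FPKM in HIF-PPN hearts, against 65.4 FPKM in control hearts. Hspb2, which binds myotonic dystrophy protein kinase, had 89.1 FPKM in HIF-PPN hearts, against 85.5 FPKM in control hearts. Hspb3, its muscle partner, had 14.5 FPKM in HIF-PPN hearts, against 16.9 FPKM in control hearts (log2 difference −0.23). Hspb2 and Cryab have the same deposited interval, chr9:50751072-50756635, and how the authors' counting divided reads between them is not given in the sources used here.

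Among the cytosolic HSP70 and HSP110 proteins, the 4 that passed were all higher in HIF-PPN hearts. Hsph1, HSP105, a nucleotide exchange factor that also holds unfolded proteins (chr5:149616845-149636315), had 21.6 FPKM in HIF-PPN hearts, against 13.0 FPKM in control hearts. Its log2 difference of 0.73 (1.66-fold) came after that of Hspb7. Hspa8, Hsc70, the constitutive HSP70 (chr9:40801273-40805199), had 82.3 FPKM in HIF-PPN hearts, against 57.8 FPKM in control hearts (log2 difference 0.51). Hspa4, another HSP110, stayed near control at 54.7 FPKM in HIF-PPN hearts, against 53.2 FPKM in control hearts. Hspa2, best known for its part in meiosis in the testis, had 3.28 FPKM in HIF-PPN hearts, against 3.10 FPKM in control hearts. The ratio of Hsph1 to Hspa4 was accordingly 0.395 in HIF-PPN hearts, against 0.245 in control hearts.

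Both cytosolic HSP90 genes were also higher. Hsp90aa1, the stress-inducible HSP90α (chr12:110691036-110696395), had 15.02 FPKM in HIF-PPN hearts, against 9.66 FPKM in control hearts, a log2 difference of 0.64. Hsp90ab1, the constitutive HSP90β, had 424 FPKM in HIF-PPN hearts, against 353 FPKM in control hearts, a log2 difference of 0.26. By these values HSP90β made up nearly all of the HSP90 FPKM, 96.6% in HIF-PPN hearts and 97.3% in control hearts. Of the 50-base words of the Hsp90aa1 transcript, 73.1% also occur elsewhere in the genome, against 8.3% for Hsp90ab1, so this share is uncertain.

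The HSP70 co-chaperones did not share a direction. Dnaja1, a J protein that hands unfolded chains to HSP70, had 3.77 FPKM in HIF-PPN hearts, against 3.03 FPKM in control hearts. Dnajb1, HSP40, the J protein most strongly tied to the heat shock response, had 9.87 FPKM in HIF-PPN hearts, against 11.7 FPKM in control hearts. Bag3, which couples HSP70 to autophagy and whose loss causes cardiomyopathy, had 95.4 FPKM in HIF-PPN hearts, against 98.3 FPKM in control hearts. Hsf1 itself had 16.1 FPKM in HIF-PPN hearts, against 16.7 FPKM in control hearts.

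**Figure D2:**
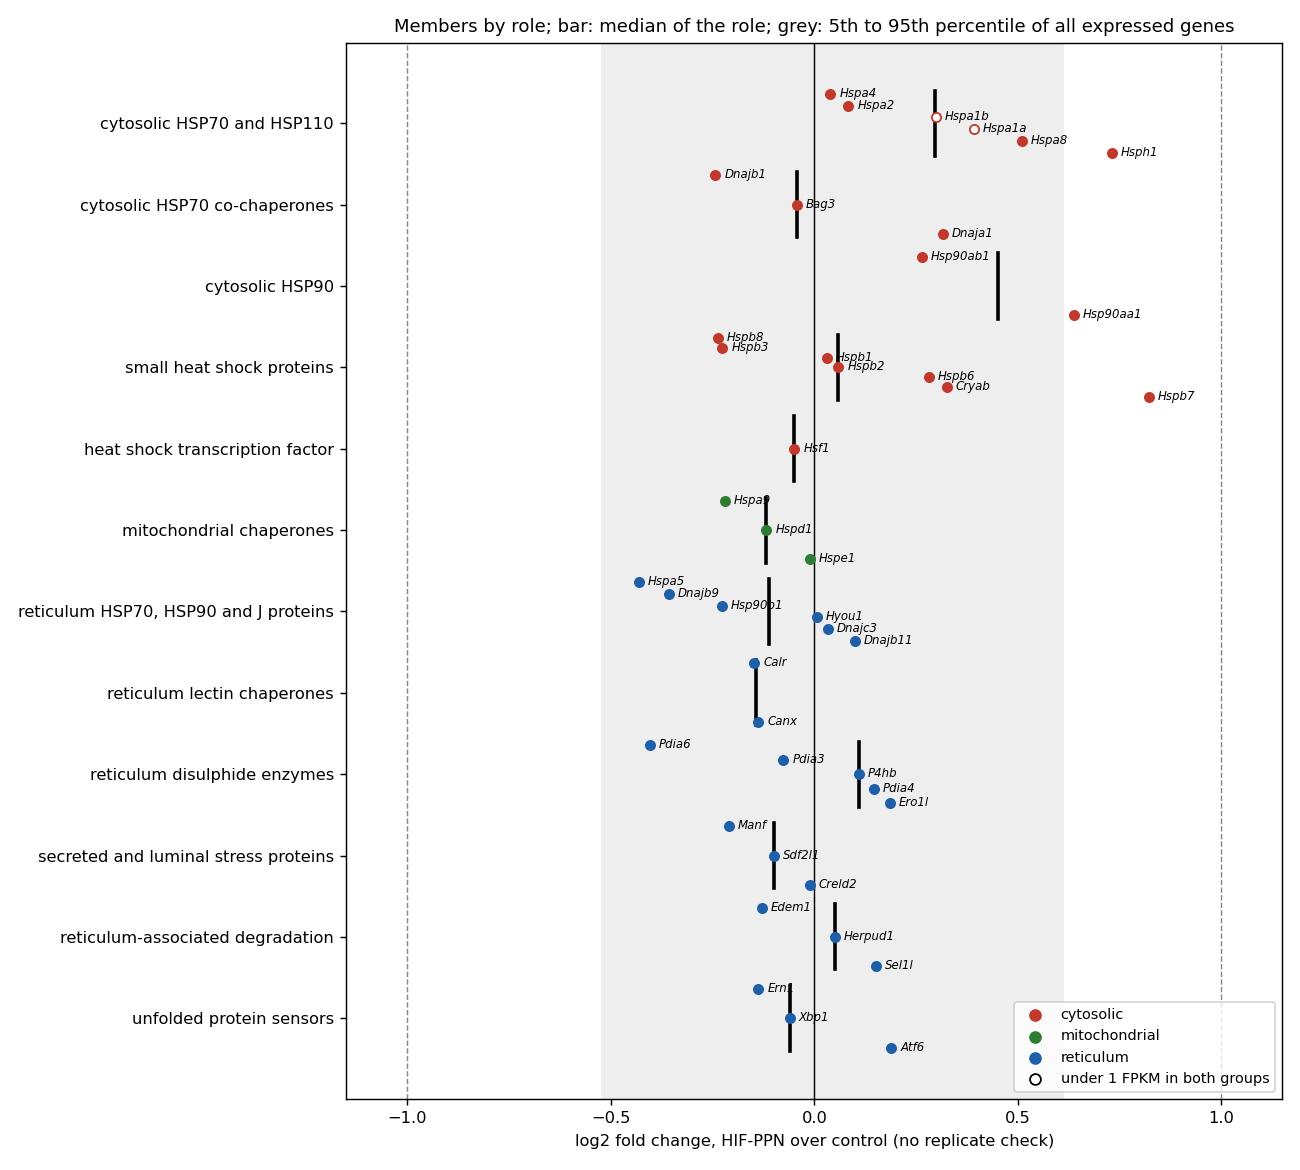
Log2 ratio of HIF-PPN to control FPKM for each gene, ordered by role, with 1 merged value per group behind each point. The cytosolic HSP70, HSP110 and HSP90 genes lie above 0 and the mitochondrial genes below it, and no point reaches 2-fold (1 on this axis).

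The mitochondrial chaperones, which import and fold matrix proteins, differed by unequal amounts. Hspa9, mortalin, the mitochondrial HSP70, had 272 FPKM in HIF-PPN hearts, against 317 FPKM in control hearts (log2 difference −0.22). Hspd1 had 80.0 FPKM in HIF-PPN hearts, against 86.8 FPKM in control hearts (log2 difference −0.12). Hspe1 had 57.0 FPKM in HIF-PPN hearts, against 57.5 FPKM in control hearts (log2 difference −0.012). Of all genes, 18.96% lay below Hspa9, 30.6% below Hspd1 and 46.0% below Hspe1, so that Hspe1 was in the middle of the distribution. The ratio of Hspe1 to Hspd1, the lid over the ring, was 0.712 in HIF-PPN hearts and 0.662 in control hearts.

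In the reticulum, the HSP70 and HSP90 chaperones were lower in HIF-PPN hearts. Hspa5, BiP, the main HSP70 of the lumen (chr2:34772090-34776529), had 196 FPKM in HIF-PPN hearts, against 265 FPKM in control hearts. Its log2 difference of −0.43 was the lowest of the 44 genes, and 7.23% of all genes were lower still. Among the 628 genes with a mean of 100 FPKM or more, a cutoff chosen after the values were seen, 34.9% were higher in HIF-PPN hearts, the median was −0.079 and 50 lay below Hspa5. Those 628 include 12 genes of the group. Hspa5, Hspa9, Hsp90b1, Calr, Canx and Hspb8 among them were lower, and Cryab, Hspb7, Hspb6, Hsp90ab1, Herpud1 and P4hb were higher. Hsp90b1, GRP94, the HSP90 of the lumen, had 123 FPKM in HIF-PPN hearts, against 144 FPKM in control hearts (log2 difference −0.23). Hspa8 in the cytosol and Hspa5 in the reticulum thus lay on opposite sides of control. The ratio of Hspa8 to Hspa5 was 0.419 in HIF-PPN hearts, against 0.218 in control hearts. Of the 50-base words of the Hspa8 transcript, 75.7% also occur elsewhere in the genome, against 0 for Hspa5, so this ratio is uncertain.

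The J proteins of the lumen, which steer BiP, were split. Dnajb9, ERdj4, which returns BiP to the sensor IRE1, had 40.8 FPKM in HIF-PPN hearts, against 52.3 FPKM in control hearts (log2 difference −0.36). Dnajb11, ERdj3, had 30.5 FPKM in HIF-PPN hearts, against 28.5 FPKM in control hearts. Dnajc3, p58IPK, also an inhibitor of the PERK arm, had 18.02 FPKM in HIF-PPN hearts, against 17.6 FPKM in control hearts. Hyou1, the large exchange factor GRP170, was at 13.3 FPKM in HIF-PPN hearts and 13.2 FPKM in control hearts.

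The lectin chaperones, which hold glycoproteins during folding, were both lower. Calr, calreticulin, also the main calcium buffer of the lumen, had 135 FPKM in HIF-PPN hearts, against 149.7 FPKM in control hearts. Canx, calnexin, had 117 FPKM in HIF-PPN hearts, against 128 FPKM in control hearts.

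Among the disulphide enzymes, Pdia6 stood apart. It had 46.4 FPKM in HIF-PPN hearts, against 61.4 FPKM in control hearts (log2 difference −0.40). Pdia3, the partner of the lectin chaperones, had 70.8 FPKM in HIF-PPN hearts, against 74.7 FPKM in control hearts. P4hb, protein disulphide isomerase and the beta subunit of collagen prolyl hydroxylase, was on the other side at 112 FPKM in HIF-PPN hearts, against 103 FPKM in control hearts. Pdia4 had 20.2 FPKM in HIF-PPN hearts, against 18.2 FPKM in control hearts. Ero1l, the oxidase that recharges these enzymes and a known HIF1 target, had 12.9 FPKM in HIF-PPN hearts, against 11.3 FPKM in control hearts (log2 difference 0.19).

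The secreted and luminal stress proteins were all 3 lower in HIF-PPN hearts, and the degradation genes were split. Manf, a survival factor held in the lumen, had 17.3 FPKM in HIF-PPN hearts, against 20.1 FPKM in control hearts. Creld2, a secreted protein raised by reticulum stress, had 8.89 FPKM in HIF-PPN hearts, against 8.96 FPKM in control hearts. Sdf2l1, which works with ERdj3, had 6.17 FPKM in HIF-PPN hearts, against 6.60 FPKM in control hearts. In the degradation of reticulum proteins, Herpud1, a membrane platform of the ubiquitin ligase, had 110.4 FPKM in HIF-PPN hearts, against 107 FPKM in control hearts. Sel1l, its ligase adaptor, had 23.9 FPKM in HIF-PPN hearts, against 21.6 FPKM in control hearts. Edem1, a mannosidase-like factor that hands over glycoproteins, had 5.49 FPKM in HIF-PPN hearts, against 6.00 FPKM in control hearts.

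Of the sensors and their effectors, Xbp1, whose spliced form raises many reticulum chaperones, had 36.1 FPKM in HIF-PPN hearts, against 37.6 FPKM in control hearts. Atf6 had 38.7 FPKM in HIF-PPN hearts, against 33.9 FPKM in control hearts (log2 difference 0.19). Ern1, IRE1, had 4.10 FPKM in HIF-PPN hearts, against 4.51 FPKM in control hearts. Splicing of Xbp1 and cleavage of Atf6 cannot be read from gene FPKM.

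**Figure D3:**
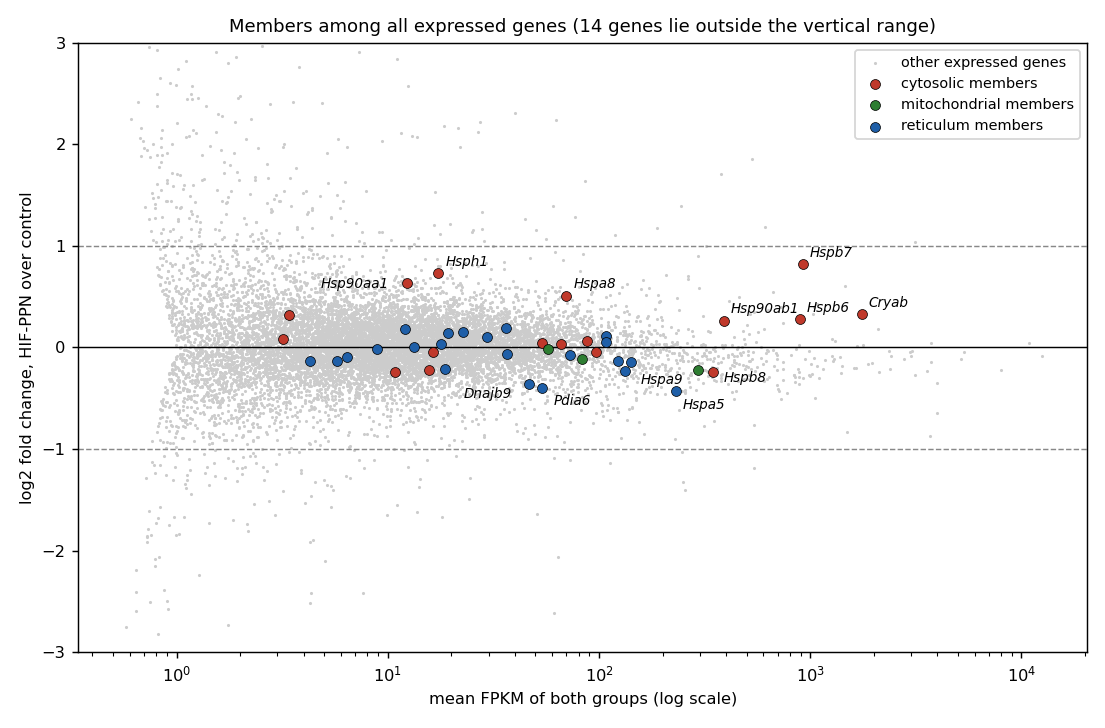
Log2 ratio of HIF-PPN to control FPKM against mean FPKM (log axis) for the 12098 genes that passed the filter, with the heat shock and unfolded protein response genes marked by compartment. The 42 marked genes lie between −0.43 and 0.82, and 14 of all genes lie beyond the limits of the axis.

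The 7 reticulum genes with the ER stress response element had log2 differences of −0.43 (Hspa5), −0.40 (Pdia6), −0.23 (Hsp90b1), −0.15 (Calr), −0.14 (Canx), −0.01 (Creld2) and 0.03 (Dnajc3). In all, 14 genes that passed the filter carry it, the 7 just named and 7 outside the group. Those outside had 2 higher and 5 lower, with a median of −0.09, beside 52.1% of all genes higher. They ran from −0.26 for Syvn1, a ubiquitin ligase of the reticulum, to 0.12 for Alg12. Zfp57 among them, at 1.03 FPKM in HIF-PPN hearts and 1.10 FPKM in control hearts, was near the filter. Alg12 and Creld2 both lie on chromosome 15, and whether they share an element was not checked. Over all 14, 3 were higher and the median was −0.14, which counts the named genes again. Among genes with a mean of 100 FPKM or more, where Hspa5, Hsp90b1, Calr and Canx lie, 34.9% were higher. Of the 6 genes that passed and carry the related element found in Herpud1, 3 were higher, with a median of 0.0099. The unfolded protein response element, a further site for ATF6 and XBP1, was searched on both strands as TGACG followed at once by TGG, which contains ACGTG. That exact form was in 185 promoters (0.563%) and in 0 of the matched genes. The Hspa5 window printed above holds TGACGTGA, which differs from it in the last letter and was not counted. Of the 83 genes that passed and carry the exact form, 43 were higher, with a median of 0.0079. Of the 49 genes that passed and carry the exact heat shock element, 27 were higher, with a median of 0.01. ACGTG and GCGTG, the cores of the HIF binding site, were less specific. ACGTG was in 16.6% of all promoters and in 3 of 13 cytosolic, 1 of 2 mitochondrial and 7 of 18 reticulum genes. GCGTG was in 28.2% of all promoters and in 5 of 13, 2 of 2 and 13 of 18 genes. For every element the percentages count single promoters of any gene, while a gene of the group counts with a match in any of its promoters. The percentages are therefore not a like baseline. Of the 12098 genes that passed, not all with a matched promoter, 2300 carried ACGTG and 4551 carried GCGTG. The ER stress response element read on its other strand starts with CGTGG, which can overlap both cores.

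Some transcripts are hard to place by short reads. The share of 50-base words of the longest annotated transcript (GENCODE vM1, NCBIM37) that occur elsewhere in the genome was 20% or more for 9 of the 44 genes and 0 for 25. It was 75.7% for Hspa8, 73.1% for Hsp90aa1, 63.0% for Hspb1 and 58.5% for Hspd1, and 0 for Hsph1, Hspa5 and Pdia6. Hspa1b shared 62.1% of its words with Hspa1a. How the authors' counting treated reads that match several places is not given in the sources used here, so the levels of these 9 genes are uncertain. Among the members with under 20%, 8 of 13 cytosolic genes and 8 of 21 reticulum genes were higher, with medians of 0.06 and −0.08, so the order of the compartments did not turn.

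**Figure D4:**
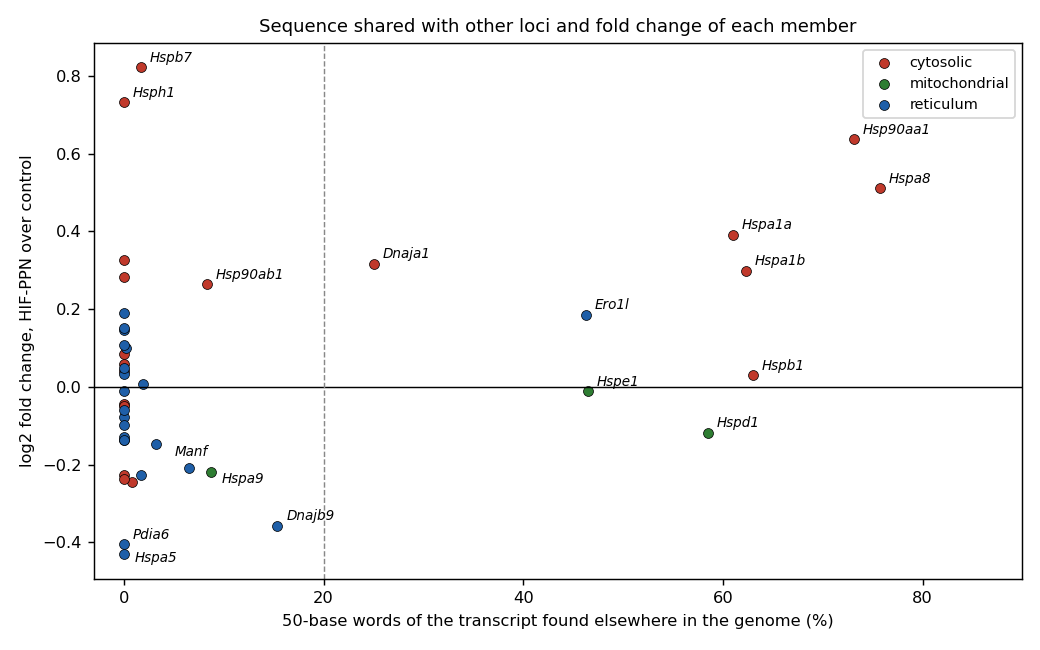
Share of each gene's 50-base words found elsewhere in the genome (percent) against the log2 ratio of HIF-PPN to control FPKM, coloured by compartment. Hspa8 and Hsp90aa1 lie above 70% and Hsph1 and Hspb7, the genes furthest above control, lie below 2%.

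Of 121 further pathway genes listed by role, 120 were in the table and 118 passed the filter. Of these, 75 were higher in HIF-PPN hearts (63.6%, beside 52.1% of all genes), with a median log2 difference of 0.06. None was 2-fold higher, and 1, Sec61g of the translocation channel, was lower by that much, at 0.424 FPKM in HIF-PPN hearts and 1.42 FPKM in control hearts, in a range where small differences in FPKM weigh heavily. All 8 subunits of the TRiC chaperonin, which folds actin and tubulin, were higher, from 0.004 to 0.35 on the log2 scale. Tcp1 of that ring had 105 FPKM in HIF-PPN hearts, against 97.5 FPKM in control hearts. Of 29 other cytosolic chaperones and co-chaperones, 19 were higher and 10 lower, and the most abundant, Smyd1 and Fkbp4, were lower. The 6 collagen prolyl and lysyl hydroxylases and helpers that passed were all higher, with Serpinh1, the collagen chaperone, at 126 FPKM in HIF-PPN hearts, against 117 FPKM in control hearts. Of the 9 genes of the PERK arm, 6 were higher, with Atf4, its transcription factor, at 59.8 FPKM in HIF-PPN hearts, against 48.2 FPKM in control hearts.

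Of 21 reticulum folding factors outside the group, 12 were higher and 9 lower, with a median of 0.01. The most abundant were Calu, a calcium-binding protein, at 180 FPKM in HIF-PPN hearts and 185 FPKM in control hearts, and Ppib, cyclophilin B, at 90.1 FPKM in HIF-PPN hearts and 86.6 FPKM in control hearts. Of 12 translocation genes 5 were higher and 7 lower, with Ssr3, a translocon-associated protein, at 139.9 FPKM in HIF-PPN hearts and 142 FPKM in control hearts. Of the 14 degradation genes outside the group that passed, 10 were higher and 4 lower, with a median of 0.12. The 6 genes of the ATF6 family and its proteases had 4 higher, and the 13 other mitochondrial chaperones and proteases had 5 higher and 8 lower, with Dnaja3, the J protein of mortalin, at 65.6 FPKM in HIF-PPN hearts and 82.6 FPKM in control hearts.

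**Figure D5:**
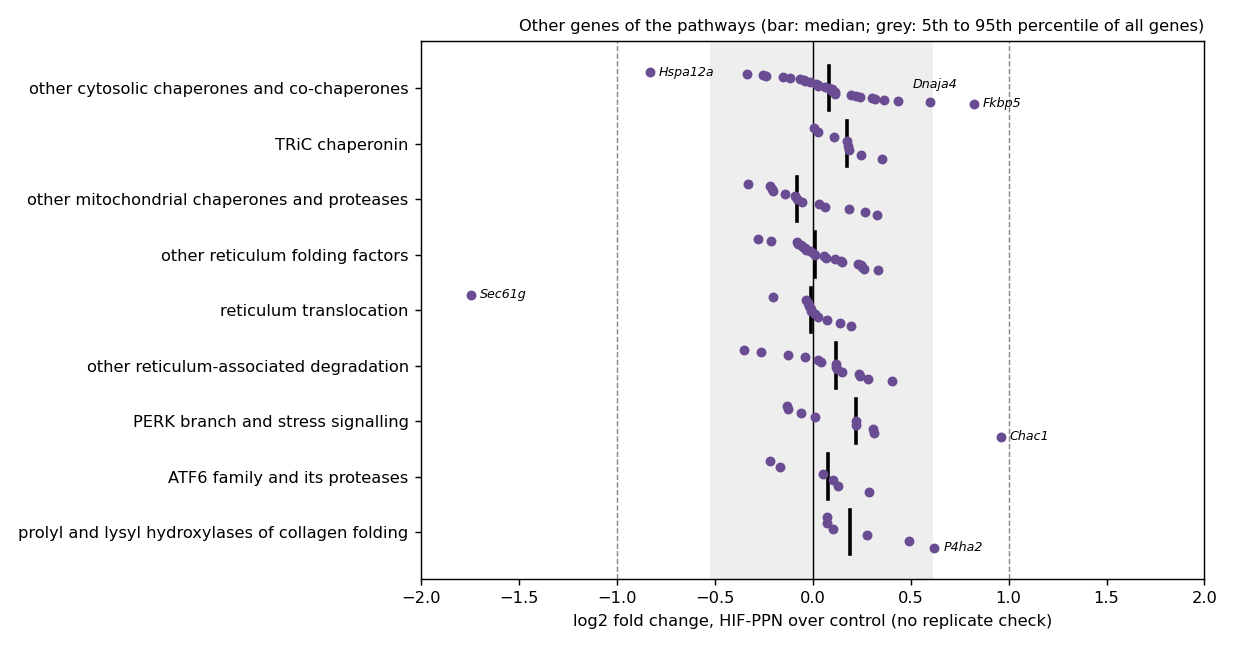
Log2 ratio of HIF-PPN to control FPKM for the members of each further list of pathway genes, 1 point per gene, with the median of each list marked. The TRiC and collagen hydroxylase genes all lie above 0, and the other lists spread over both sides.

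Some other genes differed between the same hearts. Of 16 circadian clock genes, 11 (Bhlhe41, Ciart, Cry1, Cry2, Dbp, Hlf, Nr1d2, Per1, Per2, Per3 and Tef) were higher in HIF-PPN hearts, by 0.28 to 1.40 on the log2 scale, and 5 (Arntl, Npas2, Clock, Nr1d1 and Bhlhe40) were lower. Among them were Arntl at 1.37 FPKM in HIF-PPN hearts and 7.30 FPKM in control hearts, Per2 at 5.04 FPKM in HIF-PPN hearts and 1.92 FPKM in control hearts and Dbp at 76.3 FPKM in HIF-PPN hearts and 36.3 FPKM in control hearts. The cold-inducible genes Cirbp and Rbm3, which follow body temperature, were at 65.8 and 5.98 FPKM in HIF-PPN hearts, against 52.8 and 4.92 FPKM in control hearts. Of 11 immediate early genes, 7 passed the filter and 6 of these were lower, with Fos at 1.49 FPKM in HIF-PPN hearts and 3.70 FPKM in control hearts. The hours at which the hearts were taken are not given in the sources used here, and the part of clock time in the chaperone values was not tested. Of cardiomyocyte markers, 9 of 9 were lower, from −0.74 for Ryr2 to −0.04 for Tnnt2 on the log2 scale. Their sums were 36868 FPKM in HIF-PPN hearts and 41441 FPKM in control hearts. Among all genes with a mean of 500 FPKM or more, where most of these markers lie, 24.2% were higher. Adipocyte markers (6 of the 6 that passed) were higher, with a median log2 difference of 2.21. All 7 listed summed to 1264.5 FPKM in HIF-PPN hearts and 922 FPKM in control hearts, of which Fabp4 made 1233 FPKM in HIF-PPN hearts and 916 FPKM in control hearts, and Ucp1 was at 12.9 FPKM in HIF-PPN hearts and 1.72 FPKM in control hearts. Of 3 skeletal muscle markers that passed, 2 were higher, Acta1 at 579 FPKM in HIF-PPN hearts and 177 FPKM in control hearts and Casq1 at 43.4 FPKM in HIF-PPN hearts and 9.99 FPKM in control hearts, while Myh4 was listed at 0 in both groups. Macrophage and neutrophil markers (6 of 7) and endothelial markers (5 of 6) were lower, while fibroblast markers (4 higher, 3 lower) and smooth muscle markers (3 higher, 3 lower) were split and the lymphocyte and plasma cell markers, 2 of 6 each past the filter, stayed under 4 FPKM in both groups. The part of these cell types in the chaperone values was not tested. Hif1a itself had 25.9 FPKM in HIF-PPN hearts, against 35.3 FPKM in control hearts, and whether reads from the transgene fall on that row is not given in the sources used here.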

How the data were processed

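RNA from the ventricles of 3 HIF-PPN mice and 3 control mice was enriched for poly A RNA and sequenced in paired ends. The submitters' processing notes name TopHat, Bowtie, Cufflinks and Cuffdiff. The deposited values are FPKM, in which the authors had merged the 3 mice of a group, with the authors' log2 fold changes beside them, which were not used.

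Log2 ratios of HIF-PPN to control FPKM were computed without a pseudocount for genes that reached 1 FPKM in either group and had a value above 0 in both (12098 of 23792). A 2-fold difference was counted as called. The genes named were all 44, and of each further list those at 1 FPKM or more in both groups that differ 2-fold and the 2 most abundant, with all clock and cold-inducible genes. Others named are among a stated count. Not every gene under this rule is reported here. The members and lists were chosen with earlier results of these data known. Alternatives were other folds, filters, pseudocounts of 0.1, 1 and 5 FPKM, centring and summed FPKM. Positions are 1-based GRCm38, which 99.5% of 21842 gene positions overlap. Python 3.11.15, numpy 2.4.6, pandas 2.3.3 and matplotlib 3.10.9 were used. The procedure was tested on simulated data.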

Additional observations from a re-analysis of the deposited data

How the results depend on the processing

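No gene of the group differed 2-fold under any filter, centring or pseudocount tried, and 3 (3 higher, 0 lower) did at 1.5-fold and 8 (5 higher, 3 lower) at a log2 difference of 0.32. The median log2 difference of the cytosolic genes, 0.08, was 0.26 with no filter on low values, which adds Hspa1a and Hspa1b. As the log2 ratio of summed FPKM, which weights the abundant small heat shock proteins, it was 0.34. Without those proteins the cytosolic genes had a log2 ratio of sums of 0.23 and a median of 0.17. The median of the mitochondrial genes, −0.12, was −0.22 without genes sharing 20% or more of their 50-base words, an alternative chosen after seeing the data that leaves 1 gene, Hspa9. Of 27 alternatives for the compartment medians, 24 stayed within 0.1, and none changed sign. For single genes, 132 of 134 alternatives stayed within 0.1. The exceptions were Hspa1a (0.15) and Hspa1b (0.12) with a pseudocount of 1 FPKM, and the sign of Hyou1 turned with centring on the median (0.010). Hspa1a and Hspa1b summed gave 0.34. No paired analysis was possible because the 3 mice of each group had been merged before deposit, and leaving out each mouse in turn could not be run for the same reason. The depth is unknown, so no interval could be given for any value.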

Other observations

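Hspa1l, an HSP70 gene outside the group that lies 546 bases from the Hspa1a locus (chr17:34972703-34979228), was the only one of the 11 HSP70 family genes that passed the filter to differ 2-fold. It had 9.49 FPKM in HIF-PPN hearts, against 3.07 FPKM in control hearts (log2 difference 1.63), and was chosen after its value was seen. Hspa12a had 8.98 FPKM in HIF-PPN hearts, against 16.0 FPKM in control hearts. Fkbp5, a cochaperone of steroid receptors, had 6.80 FPKM in HIF-PPN hearts, against 3.84 FPKM in control hearts, and Chac1, a target of the PERK arm, had 5.73 FPKM in HIF-PPN hearts, against 2.95 FPKM in control hearts. These genes too were named after their values were seen. Of 37 J proteins that passed the filter, 20 were higher and 17 lower, with a median log2 difference of 0.04.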
